A study of Homo sapiens with 24 samples.

Results

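The first day after the start of treatment was described from 8 of the 24 RNA-sequencing libraries of the series, the 6 taken at day 0 and the 2 taken at day 1. All are from HSJD-DIPG-007, an established diffuse midline glioma (DMG) cell line that carries H3F3A K27M, ACVR1 R206H and the PIK3CA allele labelled MIS. Cells were seeded as spheroids and received vehicle or the GI40 dose of LLY-283 on the following day. LLY-283 inhibits PRMT5, the enzyme that places symmetric dimethyl marks on arginines of histones and splicing proteins. Day 0 therefore stands for the start of treatment, with 3 vehicle and 3 LLY-283 libraries, and day 1 has 1 library of each treatment group. The libraries of a group and day are described as technical repeats of this cell line, so p-values measure a spread that may be technical. Every comparison below sets day 1 against day 0 in both treatment groups together, with the treatment group as a covariate. Time since seeding, time since the addition of vehicle or inhibitor, and the harvest itself cannot be told apart in this design.

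DMG is a childhood tumour of the brainstem and thalamus whose cells resemble oligodendrocyte precursors. During G2 phase and mitosis, a shared set of genes for spindle, chromosome and cyclin proteins is transcribed under the control of the MuvB, MYBL2 and FOXM1 factors. Heat shock factor 1 and the sensors of the endoplasmic reticulum each drive a separate set of chaperone genes. In Notch signalling, ligands of the DLL and JAG families on a cell activate NOTCH receptors on its neighbour, and HES and HEY repressors are the direct targets.

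Totals of the 8 libraries lay between 17423002 and 23190369 estimated counts, with the vehicle library of day 1 the deepest and the LLY-283 library of day 1 the shallowest. Values are given in CPM, counts scaled to a common total after correction for library composition. Of the markers of the line, OLIG2 was between 278 and 305 CPM at day 0, with a median of 289, against 369.8 (vehicle) and 330.2 (LLY-283) on day 1, whereas SOX10, which marks the same lineage, was at most 0.451 CPM at day 0 and at 0.305 and 0.17 at day 1. PTPRZ1, a receptor phosphatase of precursors, lay between 2639.6 and 2709.8 CPM at day 0. Among microglia and immune markers, 4 of 12 were at 0 in all 8 libraries, AIF1 included, and 2 had enough counts to be tested, with 0 called. The summed level of that list was between 1.40 and 2.35 CPM at day 0 and 0.828 and 1.19 at day 1. The endothelial list summed to 14.7 to 20.2 CPM at day 0 and to 12.5 and 11.8 at day 1, and 1 of its 4 tested members, ESAM, was called lower, a call that was lost without the vehicle library of day 1 (adjusted p = 0.0706). Libraries of different days were far apart. The chi-square distance per degree of freedom was 1.65 to 5.23 over the 15 pairs within day 0, 3 between the 2 libraries of day 1, and 18.2 to 25.5 over the 12 pairs across days.

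Of 18851 genes tested with edgeR's quasi-likelihood test, 4280 (22.7%) were called at a Benjamini-Hochberg adjusted p under 0.01. Of these, 2657 (14.1% of genes tested) were higher and 1623 (8.61%) lower at day 1. Counts of list members below are to be read beside these shares. The changes were mostly small. The median absolute log2 fold change of called genes was 0.31, and 218 genes moved by at least 1 on the log2 scale, 46 higher and 172 lower. Both day 1 libraries lay outside the range of the 6 day 0 libraries for 7477 genes (39.7%), of which 4258 were called. Nearly all of the 4280 called genes are thus separate from day 0. Lack of overlap in a called gene below therefore adds little to its call. Without the vehicle library of day 1 the number called was 2510 (1506 higher, 1004 lower), and without the LLY-283 library of day 1 the number lower was 1003. In bulk RNA, fewer cells of a type and less RNA per cell cannot be told apart, and this holds for every change below.

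Promoter sequences are shown for 4 gene lists of which most members rose, because each list has a textbook promoter element. The 250 bases before each RefSeq gene start (build GRCh38.p14) were searched on both strands. The CHR element, TTTGAA or TTCGAA, is the site of the MuvB complexes and was found in 12 of the 24 genes of the mitosis list that matched the promoter table (50%), against 14.6% of 27305 promoters. The endoplasmic reticulum stress element, CCAAT and CCACG with 9 bases of any kind between them, is bound by ATF6 with NF-Y and was found in 6 of 20 matched genes of the unfolded protein response (30%), against 0.0806% of promoters. A heat shock element spelled GAA, TTC and GAA with 2 free bases at each gap was found in 2 of 14 matched heat shock genes (14.3%), against 0.439%. The RBPJ site of Notch signalling, GTGGGAA, was found in 1 of 9 matched Notch genes (11.1%), against 5.46%. These shares are descriptions without a test. They set lists of known pathway genes against all promoters and do not use the size of any change at day 1. A match does not show binding. The stretches below run 5′ to 3′ on the strand of the gene, with the matched motifs in capitals. They are the CCNB2 promoter at chr15:59105087-59105145 (plus strand), MKI67 at chr10:128126424-128126500 (minus), CDC20 at chr1:43358773-43358951 (plus) and TOP2A at chr17:40418012-40418120 (minus) for the CHR element, and HSPA5 at chr9:125241361-125241439 (minus), CALR at chr19:12938359-12938432 (plus) and XBP1 at chr22:28800573-28800651 (minus) for the stress element. CHORDC1 at chr11:90223057-90223139 (minus) has 3 overlapping heat shock elements, and HES1 at chr3:194136033-194136099 (plus) has the RBPJ site.
CCNB2: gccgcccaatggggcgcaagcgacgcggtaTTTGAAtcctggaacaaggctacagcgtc
MKI67: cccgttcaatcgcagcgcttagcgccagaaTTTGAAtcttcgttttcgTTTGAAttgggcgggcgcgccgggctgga
CDC20: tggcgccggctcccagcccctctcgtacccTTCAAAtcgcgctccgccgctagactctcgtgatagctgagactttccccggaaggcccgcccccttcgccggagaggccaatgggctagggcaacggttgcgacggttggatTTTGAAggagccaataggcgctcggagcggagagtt
TOP2A: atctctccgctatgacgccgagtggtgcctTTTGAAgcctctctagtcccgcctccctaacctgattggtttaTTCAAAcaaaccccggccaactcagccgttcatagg
HSPA5: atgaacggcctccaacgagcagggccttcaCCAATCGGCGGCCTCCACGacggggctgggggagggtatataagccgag
CALR: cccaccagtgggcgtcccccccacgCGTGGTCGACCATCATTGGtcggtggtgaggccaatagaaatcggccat
XBP1: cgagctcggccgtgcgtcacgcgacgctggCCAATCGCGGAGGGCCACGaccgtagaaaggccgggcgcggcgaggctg
CHORDC1: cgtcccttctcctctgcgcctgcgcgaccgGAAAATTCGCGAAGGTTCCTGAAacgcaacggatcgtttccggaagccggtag
HES1: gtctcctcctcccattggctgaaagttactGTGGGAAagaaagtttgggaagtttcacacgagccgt

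Among the 12 largest increases were those of CCL2, KCNJ10, HSPA1A, RSRP1, HES1, HSPA1B, DDIT4, TP53I11, NCAN, CHURC1-FNTB and H19, taken from called genes with at least 2 CPM on average and separate groups. CCL2 (chr17:34255274-34257208, plus strand, GRCh38), a chemokine that attracts monocytes, was between 2.24 and 3.11 CPM at day 0, with a median of 2.63, against 10.3 (vehicle) and 10.6 (LLY-283) on day 1. It rose by the largest amount of the named genes (log2 fold change 1.98 ± 0.13 (SE), adjusted p = 2.11e-10). KCNJ10 (chr1:159998651-160070160, minus strand), the inward rectifier potassium channel of astrocytes and oligodendrocyte lineage cells, was between 1.15 and 2.16 CPM at day 0, with a median of 1.57, against 6.41 (vehicle) and 4.35 (LLY-283) on day 1 (log2 fold change 1.75 ± 0.21 (SE), adjusted p = 1.36e-06). The 2 day 1 libraries lay further apart for KCNJ10 than for CCL2. That the genes of this paragraph did not overlap day 0 was required by the rule that named them. DDIT4, an inhibitor of mTORC1 that responds to stress and glucocorticoids, was between 97.6 and 107 CPM at day 0, with a median of 103, against 254 (vehicle) and 232 (LLY-283) on day 1 (log2 fold change 1.24 ± 0.034 (SE), adjusted p = 7.07e-16). NCAN encodes neurocan, a chondroitin sulphate proteoglycan of brain matrix, and was between 153 and 167 CPM at day 0, with a median of 163, against 346 (vehicle) and 362 (LLY-283) on day 1 (log2 fold change 1.12 ± 0.033 (SE), adjusted p = 1.62e-15). The day 0 libraries of DDIT4 and NCAN differed by little. H19, an imprinted long non-coding RNA, was between 6.56 and 9.17 CPM at day 0, with a median of 7.66, against 18.5 (vehicle) and 14.5 (LLY-283) on day 1 (log2 fold change 1.11 ± 0.10 (SE), adjusted p = 5.88e-08). RSRP1, an arginine and serine rich nuclear protein, went from a day 0 median of 11 CPM to 28.8 and 30.4, and TP53I11 from a day 0 median of 4.19 CPM to 9.28 and 9.84. CHURC1-FNTB is a readthrough of CHURC1 and FNTB and shares their exons, so its reads could not be assigned with certainty. Its call was lost without the vehicle library of day 1 (adjusted p = 0.0395). RSRP1 and TP53I11 overlap exons of RHD and TSPAN18 on the other strand, and whether counting used the strand is not given in the sources used here.

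The 12 largest decreases were in SCG2, NDRG1, C3AR1, SGPP2, CADM2, MAP3K4-AS1, SDK1, COL22A1, KHDRBS3, FRG2, RNU5A-1 and ECM1. SCG2 (chr2:223596940-223602361, minus strand), secretogranin II of dense-core secretory vesicles, was between 51.8 and 57.6 CPM at day 0, with a median of 55.3, against 9.19 (vehicle) and 7.58 (LLY-283) on day 1 (log2 fold change -2.70 ± 0.074 (SE), adjusted p = 7.07e-16). It had the lowest ratio of the named genes, 0.154 times its day 0 level. NDRG1, which is induced by hypoxia and differentiation, was between 6.05 and 7.49 CPM at day 0, with a median of 6.5, against 1.05 (vehicle) and 1.07 (LLY-283) on day 1 (log2 fold change -2.63 ± 0.18 (SE), adjusted p = 5.59e-10). ECM1 (chr1:150508062-150513789, plus strand), a secreted matrix glycoprotein, was between 41.6 and 47.2 CPM at day 0, with a median of 45, against 14.1 (vehicle) and 12 (LLY-283) on day 1 (log2 fold change -1.77 ± 0.071 (SE), adjusted p = 2.44e-13). The rule that named the genes of this paragraph required both day 1 libraries to lie outside the day 0 range. These 3 genes stood far below that range. C3AR1, the receptor of complement C3a, went from a day 0 median of 3.67 CPM to 0.784 and 0.735, and SGPP2, a sphingosine-1-phosphate phosphatase, from a day 0 median of 3.5 CPM to 0.784 and 0.792. Both ended under 1 CPM, where few reads carry each value. The adhesion protein SDK1 went from a day 0 median of 9.86 CPM to 2.05 and 2.88, its fellow CADM2 from a day 0 median of 3.21 CPM to 0.784 and 0.678, and the collagen COL22A1 from a day 0 median of 7.08 CPM to 1.83 and 2.04. KHDRBS3, an RNA-binding splicing regulator, went from a day 0 median of 2.48 CPM to 0.741 and 0.678. MAP3K4-AS1 went from a day 0 median of 18.8 CPM to 5.01 and 3.9 and lies antisense to MAP3K4. FRG2 belongs to a family of near-identical copies, and RNU5A-1 is a small nuclear RNA that a poly(A) library captures poorly, so their values are uncertain.

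**Figure D1:**
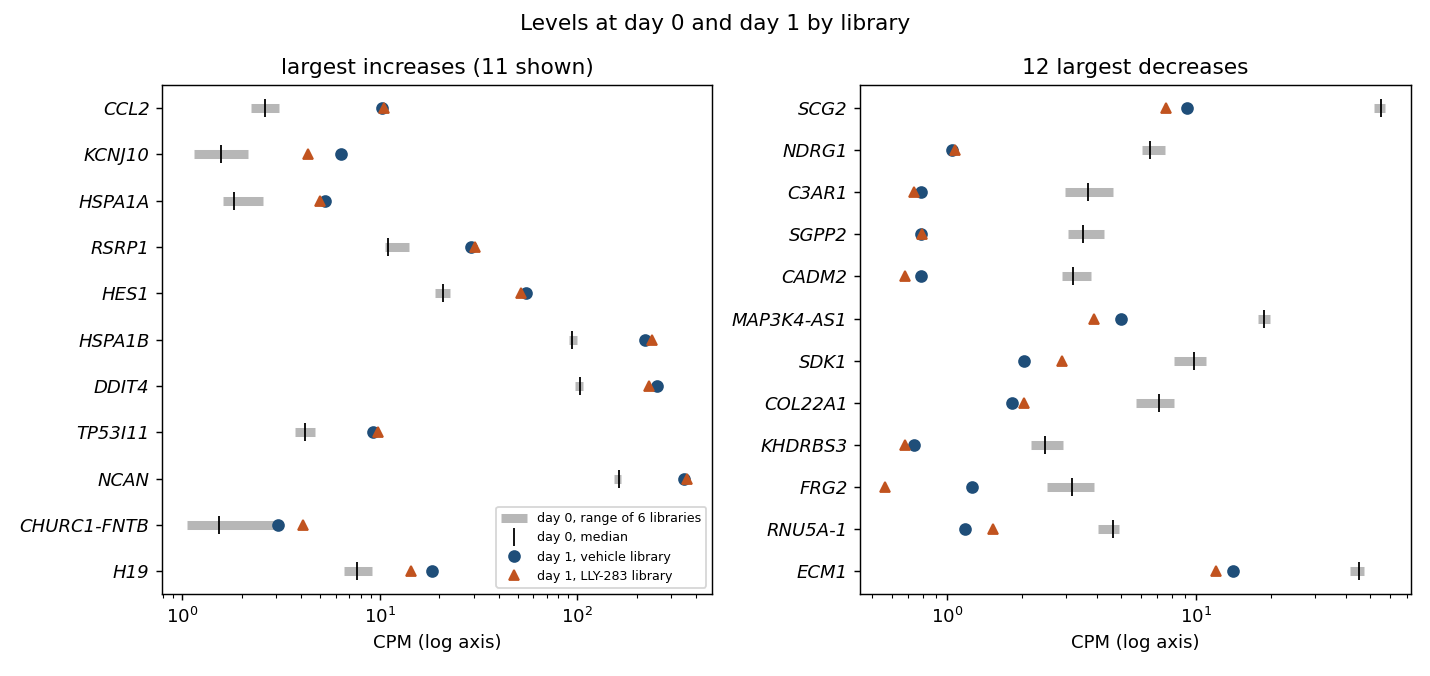
CPM on a log axis for 11 of the 12 largest increases (left) and the 12 largest decreases (right). The grey bar spans the 6 day 0 libraries with their median as a tick, and the circle (vehicle) and triangle (LLY-283) are the 2 libraries of day 1. Both day 1 libraries lie outside the grey bar for each gene shown, a property that the naming rule required, with SCG2 going from a day 0 median of 55.3 CPM to 9.19 and 7.58 CPM.

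All 30 tested members of the mitosis and G2/M list were higher at day 1, against 14.1% of all genes, and the median log2 fold change was 0.73 against -0.01 for all genes tested. Their summed level was between 3345 and 3406 CPM at day 0 and 5562 and 5234 at day 1. KIF20A, a kinesin needed for cytokinesis, was between 35.6 and 37.3 CPM at day 0, with a median of 35.9, against 80.9 (vehicle) and 73.2 (LLY-283) on day 1 (log2 fold change 1.09 ± 0.044 (SE), adjusted p = 2.95e-13). DLGAP5, a spindle assembly protein, was between 47.6 and 50.9 CPM at day 0, with a median of 49.4, against 103 (vehicle) and 94.7 (LLY-283) on day 1 (log2 fold change 1.00 ± 0.039 (SE), adjusted p = 1.99e-13). The day 0 libraries of both genes were tightly grouped and the day 1 libraries did not overlap them. TOP2A, the topoisomerase that untangles chromosomes before mitosis, was between 208 and 218 CPM at day 0, with a median of 218, against 406 (vehicle) and 377 (LLY-283) on day 1 (log2 fold change 0.86 ± 0.034 (SE), adjusted p = 1.8e-13). CCNB1 encodes cyclin B1, the partner of CDK1 at mitotic entry, and was between 109 and 117 CPM at day 0, with a median of 112, against 206 (vehicle) and 197 (LLY-283) on day 1 (log2 fold change 0.84 ± 0.035 (SE), adjusted p = 3.79e-13). MKI67, the proliferation antigen Ki-67 that coats mitotic chromosomes, was between 333 and 361 CPM at day 0, with a median of 345, against 603 (vehicle) and 558 (LLY-283) on day 1 (log2 fold change 0.75 ± 0.036 (SE), adjusted p = 2.76e-12). The vehicle library was the higher of the 2 at day 1 for each of these 5 genes. Log2 fold changes of the 30 members ran from 0.18 for MAD2L1 to 1.09 for KIF20A, and 28 to 30 members were called under the alternatives tried. KIF20A overlaps exons of BRD8 and CDC23 on the other strand.

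Genes of DNA replication and S phase moved less. Of 32 members, 15 were higher and 2 lower, with a median log2 fold change of 0.13, and the summed level was between 4298 and 4669.9 CPM at day 0 and 5308 and 4956 at day 1. UHRF1, which carries DNA methylation to new strands, was between 535 and 557 CPM at day 0, with a median of 546, against 715 (vehicle) and 692 (LLY-283) on day 1 (log2 fold change 0.36 ± 0.033 (SE), adjusted p = 3.56e-08). RRM1, the large subunit of ribonucleotide reductase, went from a day 0 median of 228 CPM to 289.9 and 279, and the polymerase alpha subunit POLA2 from a day 0 median of 53.5 CPM to 71.6 and 66.2. All 3 rose in both libraries by less than any of the 5 mitotic genes above. MCM2, a subunit of the replicative helicase, was between 183 and 203 CPM at day 0, with a median of 199.7, against 230.5 (vehicle) and 208 (LLY-283) on day 1 (log2 fold change 0.16 ± 0.042 (SE), adjusted p = 0.00594). Its LLY-283 library lay just above the day 0 range, and the call was lost without the vehicle library of day 1 (adjusted p = 0.48). Without that library 7 members were called higher.

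Regulators of cell cycle entry were mixed, with 7 of 17 higher (41.2%) and 1 lower (5.88%), against 14.1% and 8.61% of all genes. The median change of the list was 0.313 within vehicle and -0.013 within LLY-283. The member that fell was CDKN1A, the CDK inhibitor p21, which was between 358 and 387 CPM at day 0, with a median of 377, against 216 (vehicle) and 224 (LLY-283) on day 1 (log2 fold change -0.78 ± 0.037 (SE), adjusted p = 2.76e-12). The group that rose held both drivers and brakes. CDK6, a G1 kinase, was between 157 and 165 CPM at day 0, with a median of 160.4, against 206 (vehicle) and 211 (LLY-283) on day 1 (log2 fold change 0.38 ± 0.034 (SE), adjusted p = 3.2e-08), and RB1, its substrate and a brake on E2F, went from a day 0 median of 123 CPM to 156 and 152. CDKN1C, the CDK inhibitor p57, was between 45.2 and 52.5 CPM at day 0, with a median of 48.8, against 77 (vehicle) and 70.1 (LLY-283) on day 1 (log2 fold change 0.58 ± 0.051 (SE), adjusted p = 2.31e-08). CCND1, cyclin D1, was at 402 and 395 CPM at day 1, the first just above and the second inside its day 0 range of 375 to 401 (adjusted p = 0.637).

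Of 29 tested p53 targets, 16 were lower (8.61% of all genes were) and 5 higher, with a median log2 fold change of -0.23. Their summed level was between 1854 and 1923 CPM at day 0 and 1700.1 and 1711 at day 1. Next to CDKN1A, which also belongs to this list, the genes that fell with the smallest p were TNFRSF10B and DDB2. TNFRSF10B, the death receptor DR5, was between 114 and 123 CPM at day 0, with a median of 116, against 81.2 (vehicle) and 83 (LLY-283) on day 1 (log2 fold change -0.52 ± 0.039 (SE), adjusted p = 2.46e-09). DDB2, a DNA damage recognition factor, was between 48.2 and 54.3 CPM at day 0, with a median of 51.6, against 32.7 (vehicle) and 32.1 (LLY-283) on day 1 (log2 fold change -0.67 ± 0.056 (SE), adjusted p = 1.19e-08). Neither gene overlapped its day 0 range. MDM2, the ubiquitin ligase of p53, was between 123 and 133 CPM at day 0, with a median of 128, against 117 (vehicle) and 125 (LLY-283) on day 1 (adjusted p = 0.141), so that the LLY-283 library lay inside the day 0 range and the gene did not pass the test. BTG2, an antiproliferative target of p53 that is also an immediate early gene, was between 109 and 117 CPM at day 0, with a median of 114, against 254 (vehicle) and 234 (LLY-283) on day 1 (log2 fold change 1.10 ± 0.036 (SE), adjusted p = 8.8e-15), in the opposite direction to most of the list. Without the vehicle library of day 1, 9 members were called lower.

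The unfolded protein response had 17 of 21 members higher and 1 lower, with a median log2 fold change of 0.34 and a summed level of between 4500.0 and 4939 CPM at day 0 and 6129 and 6024 at day 1. XBP1, a transcription factor of this response, was between 57.4 and 66.7 CPM at day 0, with a median of 61.3, against 108 (vehicle) and 110.2 (LLY-283) on day 1 (log2 fold change 0.82 ± 0.043 (SE), adjusted p = 9.31e-12). HERPUD1, a component of endoplasmic reticulum-associated degradation, was between 32.7 and 38.6 CPM at day 0, with a median of 36.7, against 59.4 (vehicle) and 66.5 (LLY-283) on day 1 (log2 fold change 0.78 ± 0.054 (SE), adjusted p = 6.51e-10). The chaperone HSPA5, known as BiP, was between 578 and 639.8 CPM at day 0, with a median of 611, against 884 (vehicle) and 892 (LLY-283) on day 1 (log2 fold change 0.54 ± 0.034 (SE), adjusted p = 1.87e-10). HSP90B1, the HSP90 of the endoplasmic reticulum, was between 657 and 704 CPM at day 0, with a median of 692, against 932 (vehicle) and 956 (LLY-283) on day 1 (log2 fold change 0.46 ± 0.033 (SE), adjusted p = 1.18e-09). At day 1 the summed level of the list was higher in vehicle, whereas in these 4 genes the LLY-283 library was the higher. Both libraries lay above day 0 in all 4. Of these genes, HSPA5, HSP90B1 and XBP1, hold the stress element in the searched window, as does CALR, which went from a day 0 median of 728 CPM to 867 and 825. CRELD2 holds it too and was at 51.1 and 45.2 CPM at day 1 against 42.1 to 48.5 at day 0 (adjusted p = 0.137). DNAJB9, a co-chaperone of BiP, had the largest fold change of the list, from a day 0 median of 17.8 CPM to 32.1 and 31.8 (log2 fold change 0.84 ± 0.061 (SE), adjusted p = 1.58e-09). The member that fell was EDEM1, which hands misfolded glycoproteins over for degradation, from a day 0 median of 48.3 CPM to 38.5 and 34.9. DNAJB9, EDEM1, CALR and CRELD2 were named after their values were seen.

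Of 15 heat shock genes, 10 were higher and 0 lower, with a median log2 fold change of 0.39 and a summed level of between 10290.4 and 11096 CPM at day 0 and 12802 and 12425 at day 1. The inducible HSP70 gene HSPA1B was between 91.2 and 99.4 CPM at day 0, with a median of 94.3, against 219 (vehicle) and 239 (LLY-283) on day 1 (log2 fold change 1.27 ± 0.04 (SE), adjusted p = 5.6e-15). Its near-identical neighbour HSPA1A, which differs in few bases so that reads can be split between them, was between 1.6 and 2.56 CPM at day 0, with a median of 1.83, against 5.32 (vehicle) and 4.98 (LLY-283) on day 1 (log2 fold change 1.38 ± 0.19 (SE), adjusted p = 7.74e-06). Both rose in both libraries. CHORDC1, an HSP90 co-chaperone, was between 56.6 and 64.1 CPM at day 0, with a median of 60.8, against 110.5 (vehicle) and 124 (LLY-283) on day 1 (log2 fold change 0.95 ± 0.054 (SE), adjusted p = 1.96e-09). DNAJB1, the HSP40 partner of HSP70, was between 94 and 101 CPM at day 0, with a median of 97.6, against 154 (vehicle) and 144 (LLY-283) on day 1 (log2 fold change 0.61 ± 0.037 (SE), adjusted p = 9.11e-11), and both libraries lay above day 0. HSPH1, an HSP110 exchange factor, was between 260.4 and 270.5 CPM at day 0, with a median of 268, against 356 (vehicle) and 373 (LLY-283) on day 1 (log2 fold change 0.45 ± 0.034 (SE), adjusted p = 2.21e-09). BAG3, a co-chaperone of HSP70 in autophagy, went from a day 0 median of 31.1 CPM to 45 and 46.6 (log2 fold change 0.55 ± 0.053 (SE), adjusted p = 1.01e-07). The 5 members that did not pass included the constitutive HSPA8, which also holds the searched heat shock element, at 2998 and 2863 CPM against 2636 to 2813 at day 0 (adjusted p = 0.0486). BAG3 and HSPA8 were named after their values were seen.

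Of 13 tested Notch genes, 11 were higher and 2 lower, with a median log2 fold change of 0.55 and a summed level of between 958 and 1013 CPM at day 0 and 1264 and 1217 at day 1. A ligand of the pathway, DLL1, was between 3.57 and 4.44 CPM at day 0, with a median of 3.74, against 7.67 (vehicle) and 8.2 (LLY-283) on day 1 (log2 fold change 1.02 ± 0.13 (SE), adjusted p = 3.12e-06). Among receptors, NOTCH3 was between 76.7 and 90.2 CPM at day 0, with a median of 84.5, against 154 (vehicle) and 137 (LLY-283) on day 1 (log2 fold change 0.79 ± 0.051 (SE), adjusted p = 1.45e-08), without overlap. NOTCH1 went from a day 0 median of 247 CPM to 317 and 294 and NOTCH2 from a day 0 median of 251 CPM to 308 and 312. All 3 receptors rose, and NOTCH3 had the largest fold change of them. Among targets, the repressor HES1 was between 19 and 22.6 CPM at day 0, with a median of 20.8, against 54.8 (vehicle) and 51.7 (LLY-283) on day 1 (log2 fold change 1.35 ± 0.051 (SE), adjusted p = 8.97e-14). HEY1, another direct target, was between 80.7 and 95.9 CPM at day 0, with a median of 88.5, against 60.7 (vehicle) and 63.3 (LLY-283) on day 1 (log2 fold change -0.52 ± 0.052 (SE), adjusted p = 2.55e-07). HES1 and HEY1 thus moved in opposite directions, each outside its day 0 range in both libraries. The other member that fell was the ligand JAG1, from a day 0 median of 176 CPM to 159 and 164. HES5, HEY2, HEYL, DLL4 and MFNG had too few counts to be tested. DLL1, NOTCH1, NOTCH2 and JAG1 were named after their values were seen.

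**Figure D2:**
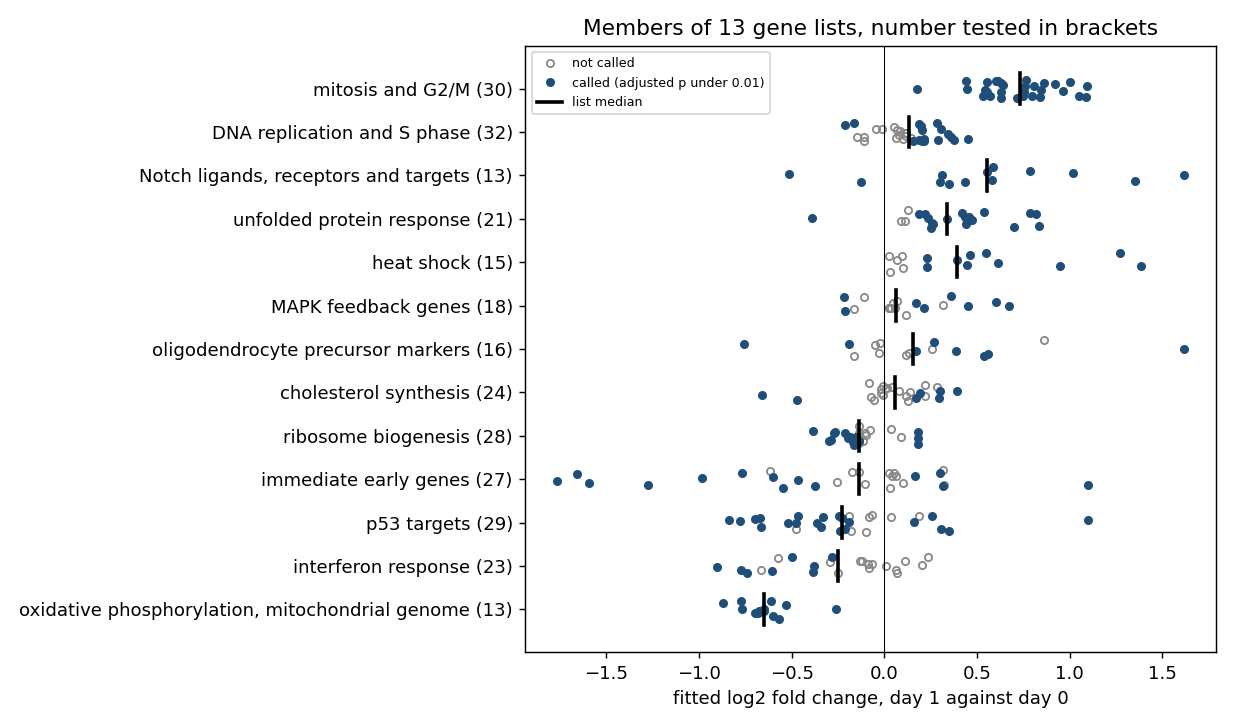
Fitted log2 fold change, day 1 against day 0, of each tested member of 13 gene lists, with the number tested in brackets. Filled points passed an adjusted p of 0.01, open points did not, and the bar is the list median, which runs from -0.65 for the mitochondrial genome to 0.73 for mitosis and G2/M.

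All 13 protein-coding genes of the mitochondrial genome, which encode subunits of the respiratory chain, were lower at day 1 (8.61% of all genes were). The median log2 fold change was -0.65 and the summed level was between 34407 and 40034 CPM at day 0 and 24089.7 and 23961 at day 1. MT-ND2, of complex I, was between 4149 and 4563 CPM at day 0, with a median of 4395, against 2865 (vehicle) and 2681 (LLY-283) on day 1 (log2 fold change -0.65 ± 0.044 (SE), adjusted p = 4.59e-10). MT-CO2, of complex IV, was between 3676 and 4131 CPM at day 0, with a median of 3981, against 2656 (vehicle) and 2499.7 (LLY-283) on day 1 (log2 fold change -0.61 ± 0.044 (SE), adjusted p = 1.4e-09), and MT-ATP6, of the ATP synthase, was between 3197 and 3798 CPM at day 0, with a median of 3584, against 2133 (vehicle) and 2017 (LLY-283) on day 1 (log2 fold change -0.77 ± 0.065 (SE), adjusted p = 2.33e-06). Log2 fold changes ran from -0.87 for MT-ND1 to -0.26 for MT-ND3. Mitochondrial genes as a whole held 4.54% to 5.40% of counts at day 0, and 2.95% (vehicle) and 2.96% (LLY-283) at day 1. With the 4 LLY-283 libraries alone, 3 of the 13 were called, against 13 with the 4 vehicle libraries alone. Within day 0, the 3 LLY-283 libraries held 4.54%, 5% and 5.14%, and the 3 vehicle libraries 4.72%, 5.32% and 5.40%, and why fewer genes passed in LLY-283 was not tested. Since these genes take several percent of counts, the fit was repeated without them, as an alternative chosen after the data were seen, and 58.16% of called genes were then higher against 62.08% with them.

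Of 28 ribosome biogenesis genes, 14 were lower and 3 higher, with a median log2 fold change of -0.14. RRP12, an export factor of ribosomal subunits, was between 121 and 128 CPM at day 0, with a median of 123, against 97.5 (vehicle) and 92.3 (LLY-283) on day 1 (log2 fold change -0.39 ± 0.038 (SE), adjusted p = 1.09e-07). DKC1, the pseudouridine synthase of H/ACA particles, was between 267 and 293 CPM at day 0, with a median of 287, against 239 (vehicle) and 226 (LLY-283) on day 1 (log2 fold change -0.29 ± 0.037 (SE), adjusted p = 4.08e-06). PES1, a large subunit assembly factor, went from a day 0 median of 243 CPM to 209 and 184, and its call was lost without the LLY-283 library of day 1 (adjusted p = 0.0122). Without that library 4 members were called lower. HEATR1, which takes part in ribosomal RNA transcription, was among those that rose, from a day 0 median of 332 CPM to 376 and 375.

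Immediate early genes, which respond to growth factors and stress without new protein synthesis, had 10 of 27 members lower and 4 higher (median -0.14). The median change was -0.037 within vehicle and -0.318 within LLY-283. Their summed level was between 1619.7 and 1799.6 CPM at day 0. At day 1 it was 1892 (vehicle), above that range, and 1778 (LLY-283), inside it. The largest increase of the list was in BTG2, given above with the p53 targets (log2 fold change 1.10). KLF2, a zinc finger factor induced by fluid shear stress, was between 35 and 53.1 CPM at day 0, with a median of 48.3, against 12.9 (vehicle) and 16.6 (LLY-283) on day 1 (log2 fold change -1.66 ± 0.08 (SE), adjusted p = 3.25e-11). KLF6 was between 123 and 159 CPM at day 0, with a median of 139.7, against 85.5 (vehicle) and 79.3 (LLY-283) on day 1 (log2 fold change -0.77 ± 0.069 (SE), adjusted p = 1.08e-05), and FOSL2, an AP-1 subunit, went from a day 0 median of 21.9 CPM to 14.7 and 15.2. FOS itself was at 8.98 and 8.25 CPM, inside its day 0 range of 7.53 to 12.5 (adjusted p = 0.436), and EGR1 at 89.7 and 80.1 against 58.4 to 76.3 (adjusted p = 0.012). Members of a few CPM fell too. ATF3, a stress-induced factor, went from a day 0 median of 2.79 CPM to 0.959 and 0.848 (log2 fold change -1.60 ± 0.23 (SE), adjusted p = 1.83e-05), and FOSB, an AP-1 subunit, from a day 0 median of 1.88 CPM to 0.654 and 0.396 (log2 fold change -1.77 ± 0.31 (SE), adjusted p = 0.000155). Both were named after their values were seen. MYC rose, being between 231 and 265 CPM at day 0, with a median of 245, against 318 (vehicle) and 286 (LLY-283) on day 1 (log2 fold change 0.30 ± 0.035 (SE), adjusted p = 1.03e-06). Without the LLY-283 library of day 1, 6 members were called lower.

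Of 18 feedback genes of MAPK signalling, 6 were higher (33.3%) and 2 lower (11.1%), against 14.1% and 8.61% of all genes. The other 10 did not pass. The median log2 fold change of the list was 0.06 and the lowest -0.22. The genes named here are among those that rose. DUSP6, the phosphatase that switches off ERK, was between 255 and 264 CPM at day 0, with a median of 259, against 389.6 (vehicle) and 398 (LLY-283) on day 1 (log2 fold change 0.60 ± 0.032 (SE), adjusted p = 1.05e-11). SPRY1, an inhibitor of receptor tyrosine kinase signalling, was between 94.2 and 106 CPM at day 0, with a median of 102, against 166 (vehicle) and 156 (LLY-283) on day 1 (log2 fold change 0.67 ± 0.044 (SE), adjusted p = 5.09e-10). Its relative SPRY4 was between 171 and 192 CPM at day 0, with a median of 181, against 246 (vehicle) and 249 (LLY-283) on day 1 (log2 fold change 0.45 ± 0.036 (SE), adjusted p = 5.62e-09). ETV5, an ERK-induced ETS factor, went from a day 0 median of 196 CPM to 255 and 247. These 4 genes rose in both libraries, without overlap with day 0.

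Of 21 tested genes of the PDGF, EGF and FGF systems, 5 were higher (23.8%) and 1 lower (4.76%), against 14.1% and 8.61% of all genes. The ligand PDGFA was between 78.8 and 88.5 CPM at day 0, with a median of 83.5, against 144 (vehicle) and 146 (LLY-283) on day 1 (log2 fold change 0.80 ± 0.04 (SE), adjusted p = 4.85e-12). Its receptor PDGFRA, a driver of oligodendrocyte precursor growth, was between 78.4 and 85.5 CPM at day 0, with a median of 79.6, against 119.5 (vehicle) and 114 (LLY-283) on day 1 (log2 fold change 0.54 ± 0.038 (SE), adjusted p = 1.08e-09). The ligand PDGFC went from a day 0 median of 48 CPM to 67.7 and 64.1. FGFR3, a fibroblast growth factor receptor named after its values were seen, went from a day 0 median of 2.11 CPM to 3.88 and 3.11 (log2 fold change 0.80 ± 0.21 (SE), adjusted p = 0.00438). EGFR moved the other way, being between 636 and 689.8 CPM at day 0, with a median of 671, against 535 (vehicle) and 534 (LLY-283) on day 1 (log2 fold change -0.31 ± 0.036 (SE), adjusted p = 9.49e-07). PDGFA and PDGFRA thus rose together while EGFR fell.

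Oligodendrocyte precursor markers had 6 of 16 tested members higher (37.5%) and 2 lower (12.5%), against 14.1% and 8.61% of all genes. The members of this list named here are among those called higher, and 8 members did not pass. The lowest log2 fold change of the list was -0.75. Its summed level was between 5299 and 5519 CPM at day 0. At day 1 it was 5553 (vehicle), just above that range, and 5366 (LLY-283), inside it. Next to PDGFRA, SOX8 was between 16.4 and 20.9 CPM at day 0, with a median of 18.2, against 26.9 (vehicle) and 27.3 (LLY-283) on day 1 (log2 fold change 0.56 ± 0.072 (SE), adjusted p = 3.81e-06), and OLIG2, given above, rose (log2 fold change 0.27 ± 0.04 (SE), adjusted p = 2.84e-05). The call of OLIG2 was lost without the vehicle library of day 1 (adjusted p = 0.0164). Of 18 tested astrocyte markers 4 were higher (22.2%) and 3 lower (16.7%). VIM, the intermediate filament vimentin, was between 1939 and 2158 CPM at day 0, with a median of 2069, against 1528 (vehicle) and 1443 (LLY-283) on day 1 (log2 fold change -0.47 ± 0.041 (SE), adjusted p = 2.1e-08), while SLC1A3, a glutamate transporter of glia, was between 312 and 329 CPM at day 0, with a median of 314, against 399.6 (vehicle) and 402 (LLY-283) on day 1 (log2 fold change 0.34 ± 0.034 (SE), adjusted p = 2.07e-07). SPARCL1, a secreted glycoprotein of astrocytes, went from a day 0 median of 44.6 CPM to 65.5 and 70.8. The largest decrease of the list was in CD44, a hyaluronan receptor of which at most 1.08 CPM was measured, from a day 0 median of 0.77 CPM to 0.218 and 0.0565 (log2 fold change -2.34 ± 0.54 (SE), adjusted p = 0.00209). CD44 was named after its values were seen. Mature oligodendrocyte markers had 2 of 8 higher and 0 lower. Neuronal markers had 0 of 10 higher and 4 lower, among them GAP43, a growth cone protein, from a day 0 median of 189 CPM to 145 and 139, and TUBB3, the neuronal tubulin, from a day 0 median of 117 CPM to 94.5 and 83.6. SNAP25 and RBFOX3, which mark mature neurons, had a median of 0.126 and 1.7 CPM at day 0. Fibroblast and pericyte markers had 4 of 16 higher (25%) and 2 lower (12.5%). Their median log2 fold change was -0.23 and the lowest -1.26, whereas their summed level went from 580 to 652 CPM at day 0 to 715 (vehicle) and 685 (LLY-283). LOX, a collagen crosslinking enzyme, went from a day 0 median of 14.7 CPM to 24.7 and 25.3. FN1 and COL1A1 were at 2.53 and 3.17, and at 6.97 and 6.78 CPM at day 1, and neither passed the test (adjusted p = 0.356 and 0.124). FN1 varied between 2.02 and 8.15 CPM within day 0.

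Lipid genes rose in part. Of 24 cholesterol synthesis genes, 5 were higher (20.8%) and 2 lower (8.33%), and 17 did not pass. Among all genes the shares were 14.1% and 8.61%. INSIG1, which retains SREBP factors in the endoplasmic reticulum, was between 71.1 and 86.2 CPM at day 0, with a median of 77, against 98.6 (vehicle) and 107 (LLY-283) on day 1 (log2 fold change 0.39 ± 0.066 (SE), adjusted p = 0.000878, and adjusted p = 0.0201 without the LLY-283 library of day 1). DHCR7, the last enzyme of the pathway, fell, being between 313 and 375 CPM at day 0, with a median of 362, against 229 (vehicle) and 217 (LLY-283) on day 1 (log2 fold change -0.66 ± 0.056 (SE), adjusted p = 1.18e-06). Of 13 fatty acid genes, 7 were higher and 0 lower, including ACSL3, which activates long-chain fatty acids, from a day 0 median of 471 CPM to 715 and 666, and the desaturase SCD, from a day 0 median of 921 CPM to 1121 and 1081. Of 11 LXR targets, 5 were higher and 1 lower, with the sterol exporter ABCG1 from a day 0 median of 52.6 CPM to 92 and 81.8 and the phospholipid remodelling enzyme LPCAT3 from a day 0 median of 60.3 CPM to 86.4 and 78.7.

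Genes of matrix and adhesion were split, 7 higher and 7 lower of 24. Beside NCAN, TIMP3, an inhibitor of matrix metalloproteinases, was between 144 and 157 CPM at day 0, with a median of 153, against 249 (vehicle) and 241 (LLY-283) on day 1 (log2 fold change 0.69 ± 0.035 (SE), adjusted p = 6.51e-12). SERPINE2, an inhibitor of thrombin and plasmin, was between 419 and 459 CPM at day 0, with a median of 434, against 688 (vehicle) and 672 (LLY-283) on day 1 (log2 fold change 0.64 ± 0.034 (SE), adjusted p = 1.11e-11). TNC, tenascin C, moved the other way and was between 304 and 312 CPM at day 0, with a median of 307, against 195 (vehicle) and 177 (LLY-283) on day 1 (log2 fold change -0.73 ± 0.037 (SE), adjusted p = 7.78e-12). Synaptic adhesion and glutamate receptor genes had 2 of 13 higher and 2 lower (15.4% each), against 14.1% and 8.61% of all genes. The AMPA receptor subunit GRIA2 went from a day 0 median of 70.6 CPM to 106 and 112. The kainate receptor subunit GRIK2 went from a day 0 median of 24.7 CPM to 15.6 and 16.1.

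Interferon response genes had 0 of 23 higher and 8 lower (median -0.25). HLA-B, a class I antigen-presenting chain, was between 143 and 152 CPM at day 0, with a median of 145, against 81.3 (vehicle) and 75.3 (LLY-283) on day 1 (log2 fold change -0.90 ± 0.041 (SE), adjusted p = 2.03e-12), and HLA-C was between 113 and 132 CPM at day 0, with a median of 122, against 79.5 (vehicle) and 65 (LLY-283) on day 1 (log2 fold change -0.74 ± 0.082 (SE), adjusted p = 0.000149). HLA genes are near-identical copies between which reads can be split. IFI44L went from a day 0 median of 11.6 CPM to 7.93 and 7.46. Without the LLY-283 library of day 1, 4 members were called lower, and without the vehicle library 5. NF-kB targets had 2 of 12 higher, CCL2 among them, and 4 lower, among them the cytokine LIF, from a day 0 median of 71.3 CPM to 52.6 and 51.2, and TNFAIP2, from a day 0 median of 29.7 CPM to 18.2 and 19.7.

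Some metabolic and stress lists had members called in both directions. Glycolysis and hypoxia had 3 higher (10.7%) and 7 lower (25%) of 28, against 14.1% and 8.61% of all genes. Amino acid and ATF4 genes had 5 (20.8%) and 7 (29.2%) of 24. NRF2 and antioxidant genes had 6 (31.6%) and 5 (26.3%) of 19, and FOXO targets 5 and 5 of 15 (33.3% each). VEGFA, a hypoxia target, was at 23.3 and 24.3 CPM against 22.1 to 25.5 (adjusted p = 0.993), whereas NDRG1, given above, belongs to the same list. NQO1, a quinone reductase, went from a day 0 median of 302 CPM to 386 and 391, and SRXN1, sulfiredoxin, from a day 0 median of 51.3 CPM to 41.4 and 36.8. Among FOXO targets, SESN3, which restrains mTORC1, went from a day 0 median of 76.9 CPM to 120.3 and 143, and CCNG2, an atypical cyclin that restrains the cell cycle, from a day 0 median of 18 CPM to 31.3 and 30.7. Glucose-responsive genes had 1 of 8 higher and 3 lower, all 3 of the arrestin family. TXNIP, which limits glucose uptake, was between 83.3 and 114 CPM at day 0, with a median of 98.1, against 63.7 (vehicle) and 63.3 (LLY-283) on day 1 (log2 fold change -0.62 ± 0.065 (SE), adjusted p = 1.18e-05), and its relative ARRDC3 was between 33.5 and 45.2 CPM at day 0, with a median of 39.2, against 24.9 (vehicle) and 26.5 (LLY-283) on day 1 (log2 fold change -0.59 ± 0.06 (SE), adjusted p = 1.97e-07). Of 18 clock genes 4 were higher (22.2%) and 2 lower (11.1%), against 14.1% and 8.61% of all genes. The repressor NR1D2 went from a day 0 median of 34.5 CPM to 55.1 and 55.7, and PER1 from 23.9 CPM to 18.4 and 18. BMP targets had 3 higher and 2 lower of 15 (20% and 13.3%). WNT targets had 1 and 0 of 8 (12.5% and 0%), and YAP targets 1 and 3 of 12 (8.33% and 25%). Metallothionein and zinc genes had 0 and 1 of 3 (0% and 33.3%), and replication-dependent histones 1 and 1 of 9 (11.1% each). With so few members tested, these shares are coarse beside the 14.1% and 8.61% of all genes. Histone messages of the last group mostly lack a poly(A) tail, so this library type captures them poorly.

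PRMT5, the target of the inhibitor, was between 83.6 and 89.4 CPM at day 0, with a median of 87.4, against 90.2 (vehicle) and 88.1 (LLY-283) on day 1, and it did not pass the test (log2 fold change 0.04 ± 0.038 (SE), adjusted p = 0.52). Of 5 genes of its complex 2 were higher, COPRS and RIOK1, both with adjusted p just under the threshold (0.00896 and 0.00918) and both lost without the vehicle library of day 1 (0.408 and 0.145). Of 21 alternatives, 15 ended the call of COPRS and 19 that of RIOK1, DESeq2 among them for both. Sm proteins and splicing regulators had 7 of 24 higher and 3 lower, with SRSF5 from a day 0 median of 159.6 CPM to 117 and 115 and TRA2A from a day 0 median of 119 CPM to 155 and 149.

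Most called genes moved in the same direction in both treatment groups, which was examined because the inhibitor was present for the whole day in the LLY-283 library. Each group was compared with its own 3 day 0 libraries, so the comparisons share no library. Of 3168 genes called within vehicle, 3056 (96.5%) had the same sign in LLY-283, and of 3248 called within LLY-283, 3119 (96.0%) had the same sign in vehicle. The share with the same sign over all tested genes was not counted. Pearson's r of the changes across the 18851 genes was 0.48, a description in which genes are not independent replicates. The interaction of treatment group with day was called for 0 genes at an adjusted p of 0.01 with edgeR and for 15 at 0.05. An unadjusted p under 0.05 was found for 1793 (9.51%), where a share of about 0.05 would be found if no gene had an interaction. DESeq2 called 5 at an adjusted p of 0.01, namely TUBA1B-AS1, SRP9P1, SCO2, PRPF4B and an unnamed gene, ENSG00000260342. With 1 library a group at day 1, this test takes its spread from day 0 alone, and it called 4 to 19 genes when any 1 of the 6 day 0 libraries was left out.

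Of the 15 genes with an interaction at an adjusted p under 0.05, 5 had a day 0 median of at least 50 CPM, a limit set after their values were seen. They are CREBZF, PRPF39, PRPF4B, NPIPB12 and TAF15. PRPF4B, a kinase of pre-mRNA splicing, was between 191 and 201 CPM at day 0, with a median of 195, against 209 (vehicle) and 264 (LLY-283) on day 1 (interaction log2 difference 0.39, adjusted p = 0.0154 with edgeR). PRPF39, a factor of the U1 particle, was between 49.4 and 56 CPM at day 0, with a median of 52.3, against 55.6 (vehicle) and 74.1 (LLY-283) on day 1 (interaction 0.52, adjusted p = 0.0154). CREBZF, a transcriptional regulator, was between 69.2 and 76.6 CPM at day 0, with a median of 70.7, against 67.1 (vehicle) and 92.3 (LLY-283) on day 1 (interaction 0.53, adjusted p = 0.0154). In all 3 the LLY-283 library was the higher at day 1. The vehicle library lay within the day 0 range for PRPF39, below it for CREBZF and above it for PRPF4B. NPIPB12, a member of a family of near-identical copies, was between 53.9 and 69.8 CPM at day 0, with a median of 65.8, against 49.1 (vehicle) and 68.8 (LLY-283) on day 1 (interaction 0.70, adjusted p = 0.0154), so that here the vehicle library was the lower. TAF15, an RNA-binding protein, was between 125 and 135 CPM at day 0, with a median of 131, against 159.6 (vehicle) and 130.4 (LLY-283) on day 1 (interaction -0.34, adjusted p = 0.0452), with the vehicle library the higher. Of the 15 genes, 8 had the same direction between LLY-283 and vehicle on both day 2 and day 3, and 7 did not. On day 3, PRPF4B stood at 212 (vehicle) and 287 (LLY-283) CPM, PRPF39 at 59.8 and 75.1, CREBZF at 78.4 and 106, TAF15 at 151 and 102, and NPIPB12, now in the opposite direction, at 65.5 and 62.1. In the list of Sm proteins and splicing regulators, 2 of 24 members had an unadjusted interaction p under 0.05, against 9.51% of all genes, and 0 passed the adjusted threshold of 0.01 with edgeR.

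**Figure D3:**
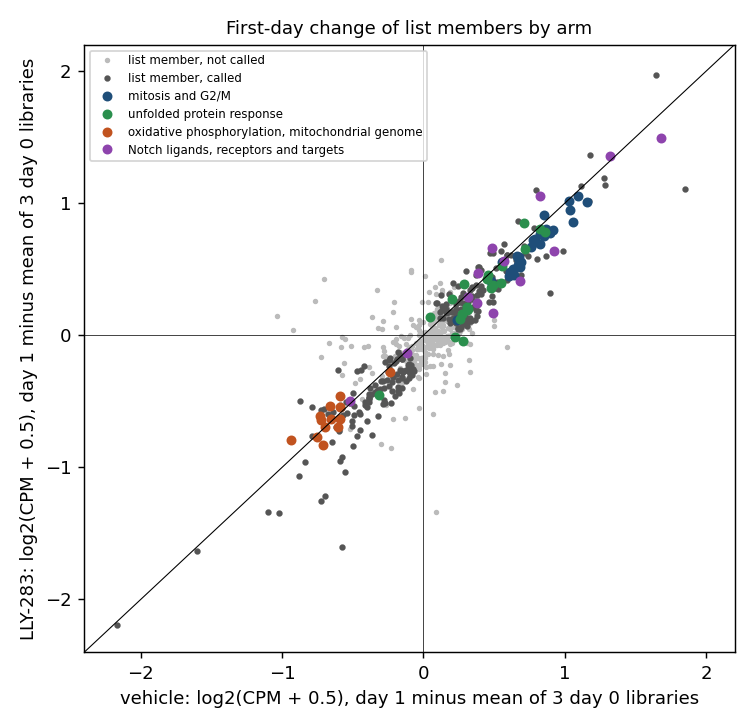
Change of each tested list member from day 0 to day 1 on the log2(CPM + 0.5) scale, in vehicle (horizontal) and LLY-283 (vertical), each against the mean of its own 3 day 0 libraries. The line marks equal change, and coloured points are the mitosis, unfolded protein response, mitochondrial genome and Notch lists. All 30 mitosis members lie in the upper right quadrant and the 13 mitochondrial genes in the lower left.

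Later days show which first-day changes lasted, as values without a test and against the same 6 day 0 libraries. Medium and dose were renewed after day 5. List medians are given as log2 differences from the day 0 mean. The mitosis list stood at 0.77 (vehicle) and 0.67 (LLY-283) at day 1, 0.74 and 0.71 on day 2, and 0.45 and 0.36 on day 10, so it stayed above day 0 throughout. Notch genes went on upward, from 0.56 and 0.46 at day 1 to 0.91 and 0.75 at day 3. KCNJ10 and H19 also continued, to 36.9 and 24.6 CPM for KCNJ10 and 61.6 and 71.3 for H19 at day 10. Heat shock genes had their highest median at day 1, 0.42 and 0.34, against 0.19 and 0.05 on day 2. The unfolded protein response stood 0.29 and 0.39 above the day 0 mean on day 1, and 0.32 and 0.18 above it on day 3. The p53 targets were lowest at day 2, -0.37 and -0.25 against -0.21 and -0.22 at day 1, and had passed day 0 in LLY-283 by day 5 (0.28 to 0.42). Genes of the mitochondrial genome stayed low in vehicle, -0.64 at day 1 and -0.52 at day 3, and in LLY-283 they stood at -0.66 on day 1, -0.06 on day 3 and -0.46 to -0.18 in the 3 libraries of day 5. On day 10 they stood at -0.29 (vehicle) and 0.07 (LLY-283). At day 7 the second vehicle repeat stood at 0.35 for p53 targets and the second LLY-283 repeat at -0.03, each nearer to the other group's first repeat (0.39 and 0.08). For heat shock genes the second vehicle repeat (0.20) stood with the first (0.20), as it did for the mitochondrial genome (-0.55 and -0.58). The second LLY-283 repeat stood with the vehicle repeats in both lists. It was at 0.20 for heat shock genes, against -0.02 in the first LLY-283 repeat. For the mitochondrial genome it was at -0.59, against -0.26 in the first. The labels were kept, and no difference between groups is read from that day. SCG2 and ECM1 did not return, at 6.95 and 7.8 CPM, and 7.72 and 5.4 CPM, at day 10.

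**Figure D4:**
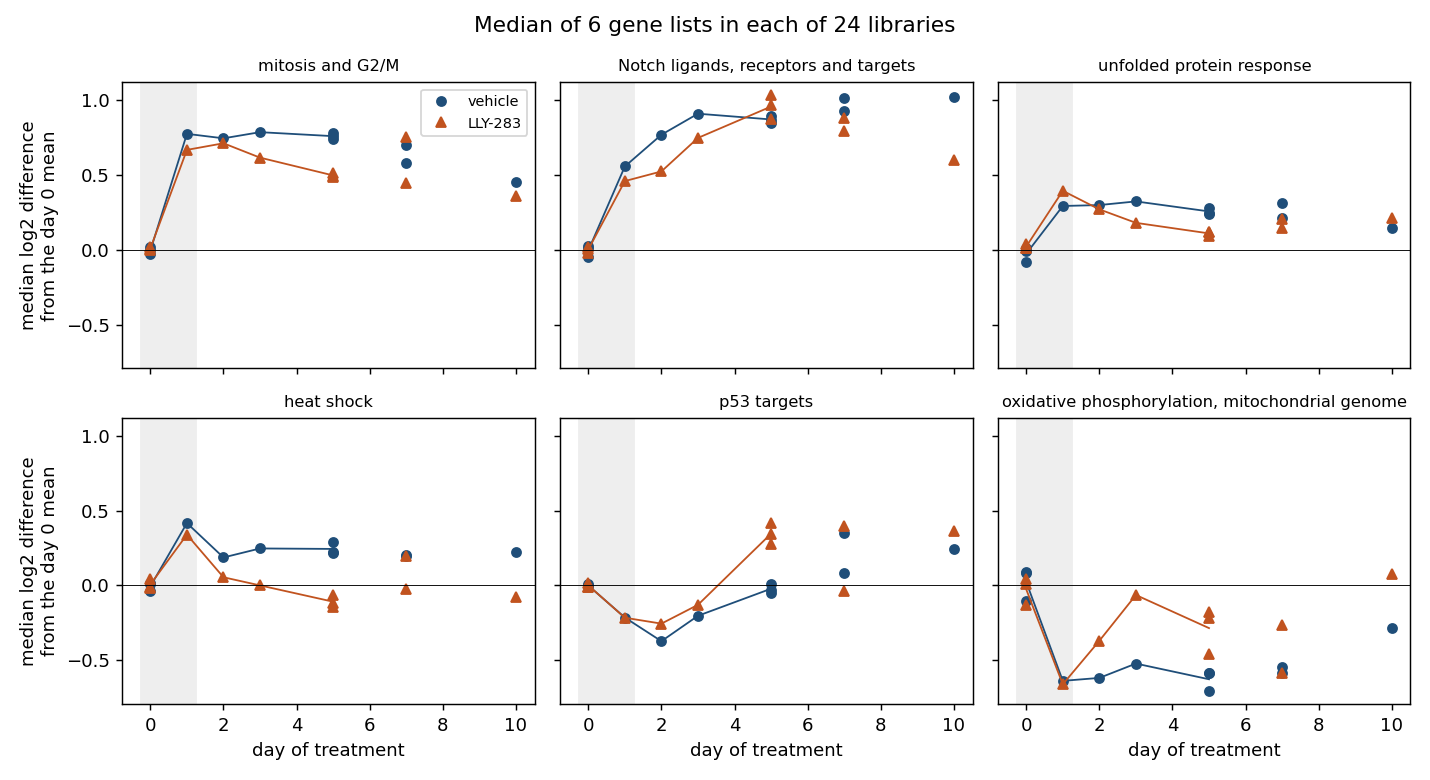
Median log2 difference from the day 0 mean of 6 gene lists in each of the 24 libraries, by day of treatment, with vehicle as circles and LLY-283 as triangles. Lines join the means of days 0 to 5, day 7 and day 10 libraries are unjoined, and the shaded band marks the first day. Heat shock genes are highest at day 1, while Notch genes are higher at day 3 (0.91 and 0.75) than at day 1 (0.56 and 0.46).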

How the data were processed

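RNA of HSJD-DIPG-007 cells was sequenced from poly(A)-selected directional libraries. The authors trimmed the reads, pseudoaligned them to the human transcriptome (hg38) with kallisto and deposited estimated counts per gene as whole numbers for 24 libraries, not scaled for depth. The kallisto version, the trimming tool, the annotation release and the strand setting of counting are not given in the sources used here. No reads per transcript were examined, so changes in isoform cannot be seen. Of 58676 gene identifiers, 58207 matched a symbol.

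The 6 day 0 and 2 day 1 libraries were fitted with edgeR 4.0.16 in R 4.3.3 (TMM normalization, filterByExpr by day, robust quasi-likelihood test, treatment group as covariate), with Benjamini-Hochberg adjustment over all 18851 genes tested and a threshold of 0.01. The difference between treatment groups was tested as the interaction of group with day. CPM use library totals and TMM factors over the 24 libraries, and changes within a group use log2(CPM + 0.5). Totals of the 24 libraries ran from 13835205 to 23190369 counts. Depth limits genes of a few CPM more than others.

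Genes were named as the 12 largest called changes in each direction with a mean of at least 2 CPM and both day 1 libraries outside the day 0 range, the 4 genes of smallest p in each of 39 lists (712 genes), PRMT5 and a fixed set of pathway genes. Genes given as the ends of a list's range, or marked so in the text, were chosen after their values were seen. Some genes that the rule names are not reported here. The comparison, the members and the lists were chosen with earlier results of these data known. Replicate numbers did not pair the libraries. DESeq2 1.42.0 and other settings were tried as alternatives. The tests were tested on simulated data first.

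Promoters were taken from RefSeq (GRCh38.p14) and gene positions from GENCODE on GRCh38. Genes with an overlapping or near-identical partner are marked.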

Additional observations from a re-analysis of the deposited data

Results flagged for a closer look

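In the 6 day 0 libraries, 12 of 181 genes examined had a sample whose gap to the next was large against the whole range by Dixon's test, where chance flags about 1 in 20. In the first vehicle repeat of day 0 these were RSRP1 at 14 CPM, CDKN1A at 358, DKC1 at 267, HERPUD1 at 32.7, NT5E at 98, ESAM at 9.12, CLNS1A at 105 and SOX10 at 0.451. In the third LLY-283 repeat they were CHURC1-FNTB at 3.00 CPM, HSPH1 at 260.4 and PDGFRA at 85.5, and in the first LLY-283 repeat PDGFC at 53.5. The 2 libraries of day 1 cannot be examined in this way. The first vehicle repeat also had the highest mitochondrial share of counts at day 0, 5.40%. Its part in these values was not tested. CLNS1A and SOX10 were not called at day 1 against day 0, and each of the other genes named here kept its call without the library that stood apart.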

How the results depend on the processing

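Overall counts were recomputed under 23 alternatives, named genes under 21, list counts under 14 and the interaction under 11, and no called result reversed under those run. Of 151 named genes called, 108 were called under all 21, 29 lost the call under 1 to 3 and 14 under more. Replicate numbers did not pair the libraries, since same-numbered libraries deviated with correlations of -0.0843, -0.0567 and -0.0215, so the replicate block is an alternative only. With the replicate block, 2351 genes were called (1484 higher, 867 lower), and 10 genes for the interaction. A fit of all 24 libraries called 2809, with 1029 lower. An absolute log2 fold change of at least 1 left 218 (46 higher, 172 lower), and an adjusted p of 0.05 gave 2528 lower. Leaving out 1 library gave 2510 to 4610 called, 1506 to 2715 higher and 1003 to 1950 lower, the lowest total without the vehicle library of day 1. With 1 library left at day 1, that library is assumed to vary like day 0. The interaction was called for 5 genes with DESeq2, 1 by library size alone, 70 with no filter on low counts, 15 at an adjusted p of 0.05 and 4 to 19 with 1 day 0 library left out. It could not be fitted without a day 1 library. Members called lower were 6 (vehicle only) or 6 to 10 (1 library left out) for immediate early genes, 10 (block) or 9 to 16 for p53 targets, 4 (vehicle only), 3 (block) or 4 to 20 for ribosome biogenesis, 3 (LLY-283 only) for the mitochondrial genome, and 5 (vehicle only), 5 (block) or 4 to 9 for the interferon response. Members of DNA replication called higher were 9 (LLY-283 only), 9 (block) or 7 to 16. The share of called genes that were higher was 62.08%, and 54.88% by library size alone. Why the counts moved was not tested. Depth limits genes of a few CPM, and 1 library a group at day 1 limits every result.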

Other observations

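Gene families, some of which share members with the lists above, were counted after the results had been seen. Nuclear genes of the respiratory chain did not fall with those of the mitochondrial genome. Of 74 nuclear genes for NADH dehydrogenase, cytochrome and ATP synthase subunits, 27 rose (36.5%) and 0 fell (median log2 fold change 0.12), against 14.1% higher and 8.61% lower among all genes. Mitochondrial transfer RNAs, which are cut from the same long transcripts as the messages of that genome, had 15 of 22 lower and 0 higher (median -0.78). A poly(A) library captures transfer RNAs poorly, so their values are uncertain. Mitochondrial ribosomal proteins had 6 of 78 higher (7.69%) and 0 lower, and cytosolic ribosomal proteins 1 of 83 higher (1.20%) and 3 lower (3.61%), all below the shares among all genes.

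Genes that host small nucleolar RNAs, with an SNHG symbol, had 14 of 24 lower (58.3%) and 0 higher (median -0.24). Class I HLA heavy chains and antigen loading genes had 10 of 15 lower (66.7%) and 0 higher (median -0.49), with the caveat of near-identical copies. Of 5 tested genes for granins and for processing and carrier proteins of dense-core vesicles, the granins SCG2, VGF and CHGB fell. VGF, a secreted neuropeptide precursor, went from a day 0 median of 537 CPM to 189 and 195 (log2 fold change -1.49 ± 0.041 (SE), adjusted p = 7.07e-16), and CHGB, chromogranin B, went from a day 0 median of 12.1 CPM to 7.45 and 6.84 (log2 fold change -0.73 ± 0.10 (SE), adjusted p = 1.43e-05). CPE, carboxypeptidase E, an enzyme that processes neuropeptides, rose (log2 fold change 0.29 ± 0.039 (SE), adjusted p = 6.62e-06), and SCG5 did not pass (adjusted p = 0.533). Kinesins, the motors of spindle and transport, had 16 of 33 higher (48.5%) and 3 lower (9.09%), the latter near the 8.61% of all genes. Genes with a CENP symbol, mostly centromere proteins, had 7 of 21 higher (33.3%) and 0 lower. Zinc finger genes with a ZNF symbol had 66 of 449 higher (14.7%) and proteasome subunits 5 of 37 (13.5%), both near the 14.1% of all genes.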
